A study of Homo sapiens with 18 samples.

Results

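Ewing sarcoma is a bone and soft tissue tumour, and 2 established lines of it, TC-32 and A673, were compared here in the state each had under a control siRNA. The series holds 18 RNA-seq libraries from TC-32, TC-71 and A673 cells, 3 for each line with a negative control siRNA (siNeg) and 3 with an siRNA against FLI1 (siFLI1). The 6 siNeg libraries of TC-32 and A673 are the members of the comparison, and they were matched gene by gene through the versioned Ensembl identifier. Of 58381 rows per table, 54899 were used, after 2900 rows on chromosome X or Y and 582 rows with no position in the annotation were left out. All cells received siRNA at 20 nM by reverse transfection, and each medium held 10% FBS. TC-32 was grown in RPMI 1640 and A673 in DMEM. The columns of the TC-32 libraries state 48 h and leave the line to the name of the table, and those of A673 state the line without a time. Each line is thus 1 table, 1 medium and 1 depth, and these cannot be told apart from the line. Nothing in the labels says whether the 3 libraries of a group came from separate cultures, so p-values measure the spread between these libraries, which may be technical.

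Ewing sarcoma cells are driven by a fusion of EWSR1 to an ETS gene, here FLI1, whose product binds GGAA repeats and raises or lowers many genes. Cell lines of this tumour share the fusion but come from different patients, and they differ in further mutations, in copy number and in the silencing of single genes. A673 is known to carry a mutation in BRAF, a kinase of the MAPK pathway, which is why genes of MAPK output are among the gene lists described here.

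The TC-32 siNeg libraries held between 24102487 and 27071130 counts, and the A673 siNeg libraries between 114564479 and 117548766. The 100 most abundant genes took between 27.1% and 27.4% of the counts in TC-32, against between 21.1% and 21.5% in A673. Genes encoded in the mitochondrion took between 9.61% and 9.82% in TC-32 and between 6.98% and 7.56% in A673. Replicates of a line differed by more than sampling noise, with a chi-square per degree of freedom of at least 2.47, and the lowest Pearson correlation between replicates over genes was 0.998. A zero in a library allows up to 3 counts, and this limit, like each counting interval, covers counting error only. Levels are given as CPM (counts scaled to a fixed library total, adjusted by the TMM method), with SD over 3 libraries, and differences as log2 fold change of TC-32 minus A673.

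Promoter sequences of 4 genes that were off in every library of one line and on in the other are shown first. They are among the extremes of the comparison and differ among themselves in CG content. They are the 250 bases before the RefSeq start on GRCh38.p14, written 5′ to 3′ with each CG in capitals, since CG is the site of DNA methylation. TWIST2 and ZNF518B were on in TC-32, while NLRP2 and POU1F1 were on in A673.
TWIST2: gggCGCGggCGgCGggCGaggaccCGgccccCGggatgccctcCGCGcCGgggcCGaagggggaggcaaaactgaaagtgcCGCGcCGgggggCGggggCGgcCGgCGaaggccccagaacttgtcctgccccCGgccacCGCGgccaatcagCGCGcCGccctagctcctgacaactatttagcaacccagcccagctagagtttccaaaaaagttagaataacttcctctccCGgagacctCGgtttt
ZNF518B: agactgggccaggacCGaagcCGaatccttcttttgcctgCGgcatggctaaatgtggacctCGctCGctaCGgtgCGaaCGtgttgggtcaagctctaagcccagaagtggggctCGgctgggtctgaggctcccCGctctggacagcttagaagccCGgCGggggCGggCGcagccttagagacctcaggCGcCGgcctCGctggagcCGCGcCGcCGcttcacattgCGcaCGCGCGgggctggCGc
NLRP2: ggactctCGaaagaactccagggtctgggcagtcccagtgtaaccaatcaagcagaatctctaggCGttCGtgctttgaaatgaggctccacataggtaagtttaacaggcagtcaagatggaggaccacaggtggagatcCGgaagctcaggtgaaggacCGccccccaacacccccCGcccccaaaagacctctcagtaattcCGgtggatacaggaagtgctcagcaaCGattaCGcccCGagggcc
POU1F1: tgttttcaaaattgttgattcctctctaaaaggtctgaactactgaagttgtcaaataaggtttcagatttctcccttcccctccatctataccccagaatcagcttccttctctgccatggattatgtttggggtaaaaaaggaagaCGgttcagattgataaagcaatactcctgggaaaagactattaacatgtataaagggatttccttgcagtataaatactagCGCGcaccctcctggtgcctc
The windows are chr2:238847835-238848084 on the + strand, with 26 CG, chr4:10457427-10457676 on the - strand, with 26 CG, chr19:54966124-54966373 on the + strand, with 10 CG and chr3:87276585-87276834 on the - strand, with 3 CG.

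The first comparison asked how far the lines differ before the fusion is depleted. Among 16889 genes that passed the low-count filter, 6746 were higher in TC-32 (39.9%) and 7083 were higher in A673 (41.9%) at an edgeR adjusted p under 0.05, which is 81.9% of the genes tested. The 3 libraries of one line did not overlap those of the other at 14044 genes (83.2%). Since most expressed genes differed, a stricter test asked for a difference larger than 2-fold (edgeR's glmTreat). It was passed by 4766 genes (28.2%), of which 2572 were higher in TC-32 (15.2%) and 2194 were higher in A673 (13%). In what follows, "past the 2-fold test" refers to this test, and the verbs "higher" and "lower" without it to an adjusted p under 0.05.

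**Figure D1:**
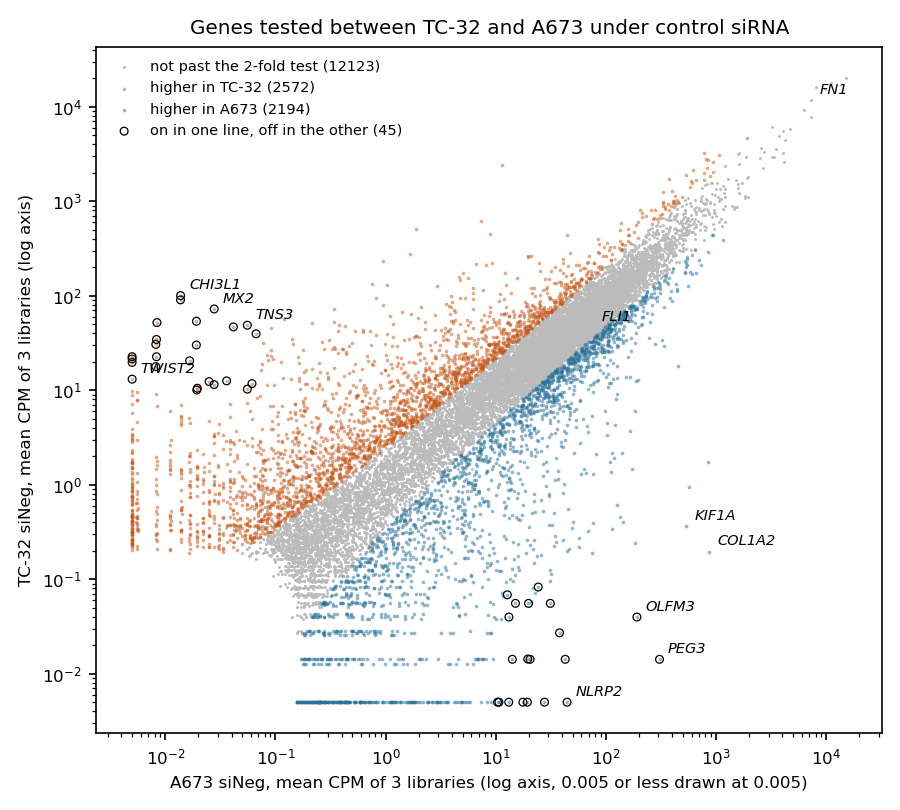
Mean CPM of each tested gene in the 3 A673 siNeg libraries (x axis) and the 3 TC-32 siNeg libraries (y axis), both on log axes, with genes past the 2-fold test coloured by the line in which they were higher. The 45 ringed genes had a mean of at least 10 CPM in one line and under 0.1 CPM in each library of the other.

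Among protein-coding genes with at least 30 CPM in the higher line, the largest differences toward TC-32 were at genes that were all but silent in A673. CHI3L1, a secreted chitinase-like glycoprotein, had 99.7, 103 and 98.3 CPM in TC-32 and 0.0249, 0.0164 and 0 CPM in A673. GALNT5, which starts mucin-type O-glycosylation, had 90.8, 92.9 and 87.1 CPM in TC-32 and 0.0166, 0.0246 and 0 CPM in A673. MX2, an interferon-induced GTPase, had 69.5, 73.5 and 74.02 CPM in TC-32 and 0.00831, 0.0328 and 0.0423 CPM in A673. The 3 genes were abundant in every TC-32 library and at 5 counts or fewer in every A673 library, and the groups lay far apart. The ratio of TC-32 to A673 was 7232 (95% counting interval 3097 to 22278) for CHI3L1 and 2610 (95% counting interval 1418 to 5445) for MX2. TNS3, a tensin that links integrins to the actin skeleton, had 46.5, 47.4 and 52.2 CPM in TC-32 and 0.0415, 0.0575 and 0.0676 CPM in A673, a ratio of 877 (95% counting interval 567 to 1437). It was high in all TC-32 libraries and near 0 in all A673 libraries. ST8SIA2, which puts polysialic acid on the adhesion molecule NCAM1, had 39.05, 41.5 and 38.1 CPM in TC-32 and 0.0665, 0.0492 and 0.0845 CPM in A673. NCAM1 itself had 175, 174 and 178 CPM in TC-32 and 12.5, 12.6 and 11.2 CPM in A673, so both were higher in TC-32 with no overlap (NCAM1 3.86, SE 0.0439, edgeR adjusted p for the 2-fold test = 4.08e-34). The other genes among the 10 largest by that limit were KIF26B, a kinesin, the scaffold FRMD4B, the zinc finger factor ZNF521, ELAPOR2 and SH3GL2, an endophilin of synaptic vesicle recycling. Their means in TC-32 lay between 30.1 CPM (ELAPOR2) and 53.6 CPM (ZNF521), against at most 0.0415 CPM (SH3GL2) in A673.

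By the same limit, the largest differences toward A673 included genes of the extracellular matrix and of neurons. COL1A2, the alpha-2 chain of type I collagen, had 0.171, 0.115 and 0.3004 CPM in TC-32 and 880.5, 845 and 874 CPM in A673, a ratio of A673 to TC-32 of 4505 (95% counting interval 2685 to 8241). COL1A1, the alpha-1 chain that pairs with it, had 80.5, 76.4 and 80.7 CPM in TC-32 and 48.7, 47.3 and 47.8 CPM in A673 and was higher in TC-32 (0.72, SE 0.0397). The 2 chains of one protein therefore differed in opposite directions between the lines. MMP1, the interstitial collagenase, had 0.981, 1.23 and 0.644 CPM in TC-32 and 579.9, 586 and 527 CPM in A673 (-9.19, SE 0.0835). PKP1, a plakophilin of the desmosome, had 1.53, 1.77 and 1.93 CPM in TC-32 and 870, 832 and 822 CPM in A673 (-8.91, SE 0.0591). KIF1A, a motor that carries synaptic vesicle precursors along axons, had 0.384, 0.461 and 0.258 CPM in TC-32 and 549.9, 529.7 and 525 CPM in A673 (-10.49, SE 0.07505). These 3 were high in each A673 library, and did not overlap between the lines. OLFM3, a secreted olfactomedin protein, had 0.0426, 0.0768 and 0 CPM in TC-32 and 188, 192 and 193 CPM in A673. LRFN5, a synaptic adhesion protein, had 0.0426, 0 and 0 CPM in TC-32 and 42.6, 43.4 and 42.3 CPM in A673. IMPACT, an inhibitor of the amino acid sensor GCN2, had 0, 0.0384 and 0.0429 CPM in TC-32 and 37.98, 38.2 and 37.7 CPM in A673. HTATIP2 had 0.0853, 0.0384 and 0.0429 CPM in TC-32 and 31.5, 30.8 and 31.6 CPM in A673. All 4 were between 0 and 2 counts in each TC-32 library. NLRP2, a NOD-like receptor family member, had 0 in all 3 libraries in TC-32 and 44.8, 45.04 and 43.5 CPM in A673, at least 345-fold higher in A673 when 0 is read as 3 counts per library.

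**Figure D2:**
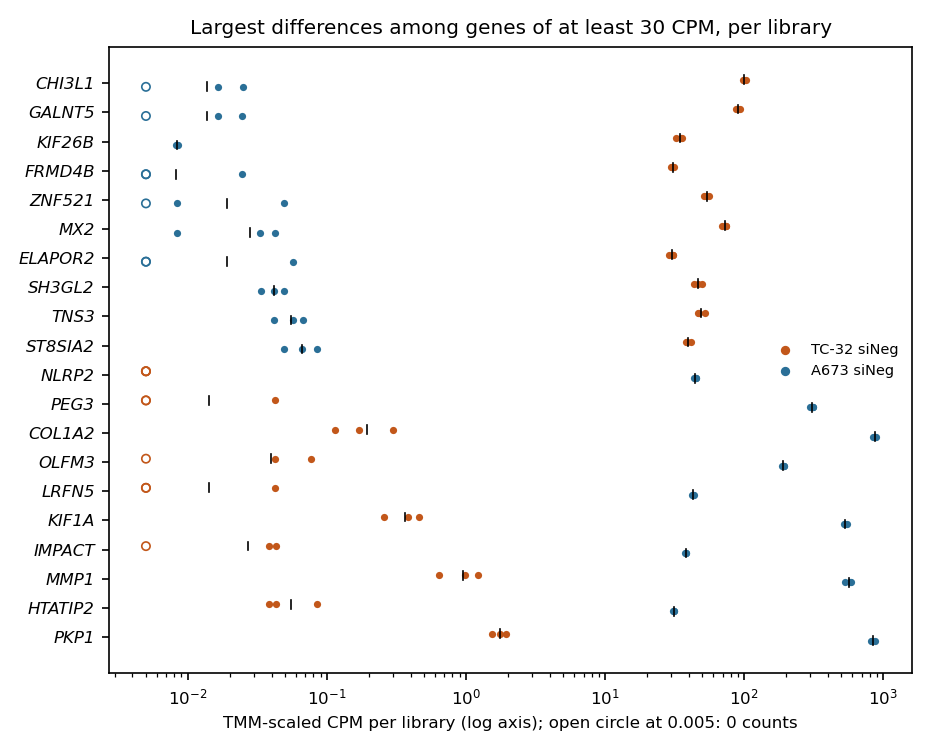
CPM in each library (x axis, log scale) of the 10 protein-coding genes with the largest difference in each direction among those with at least 30 CPM in the higher line. Filled points are libraries, open circles at 0.005 are libraries with 0 counts, and the vertical tick is the mean of 3. The 3 points of the higher line cluster tightly, and those of the lower line spread more where counts are near 0. The 2 lines lie at least 2 powers of 10 apart at every gene shown.

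Genes that were on in one line and off in the other were counted with fixed limits, a mean of at least 10 CPM in one line and under 0.1 CPM in each library of the other. There were 25 such genes on in TC-32 and 20 on in A673, and 24 and 18 of them code for proteins. TWIST2, a basic helix-loop-helix factor of mesenchymal cells, had 11.6, 13.4 and 14.3 CPM in TC-32 and 0 in all 3 libraries in A673, which puts TC-32 at least 516-fold higher. ZNF518B, a zinc finger protein, had 19.9, 20 and 19.1 CPM in TC-32 and 0 in all 3 libraries in A673, at least 777-fold higher. These were the 2 genes of the 25 at 0 in all A673 libraries. PROX1, a homeobox factor of lymphatic vessels, liver and neurons, had 18.5, 17.7 and 17.04 CPM in TC-32 and 0, 0.0246 and 0 CPM in A673. LIN28A, an RNA-binding protein that blocks let-7 maturation, had 10.1, 10.3 and 10.4 CPM in TC-32 and 0.0665, 0.0328 and 0.0676 CPM in A673. The set also held 3 genes of neuronal signalling, the serotonin receptor HTR6 (22.6 ± 3.05 CPM in TC-32), the potassium channel KCNJ3 (10.5 ± 0.928 CPM) and the glutamate receptor GRIA1 (10.1 ± 0.59 CPM). In A673, 7 of the 20 genes were at 0 in every TC-32 library. POU1F1, a pituitary transcription factor, had 0 in all 3 libraries in TC-32 and 26.4, 27.8 and 28.99 CPM in A673, at least 215-fold higher in A673. SULT1E1, which sulphates oestrogens, had 0 in all 3 libraries in TC-32 and 19.2, 19.1 and 19.8 CPM in A673, and PDPN, the membrane glycoprotein podoplanin, had 0 in all 3 libraries in TC-32 and 9.91, 10.9 and 10.4 CPM in A673. Genes of neuronal signalling were on in A673 too, among them the serotonin receptor HTR1F (14.15 ± 0.79 CPM in A673) and the potassium channel KCNH5 (13.18 ± 0.243 CPM). OR2A20P lies wholly inside exons of other genes and 47% of the exon sequence of LRRC37A4P is shared with others, so their counts are uncertain. With a limit of 0.3 CPM in the off line there were 109 such genes in place of 45, and with a mean of 30 CPM in the on line there were 17.

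The state of these genes was then read in libraries the rule did not use. Under siFLI1, 19 of the 25 genes on in TC-32 kept a mean of at least 10 CPM in TC-32. In A673, 13 of the 20 genes on there did so. POU1F1 fell to 1.17 CPM in A673 siFLI1, and FOXI3 to 0.86 CPM in TC-32 siFLI1. In the siFLI1 libraries of A673, 21 of the 25 genes on in TC-32 had a mean under 1 CPM. That limit is looser than the 0.1 CPM that called a gene off. Some of the 21 stayed under 0.1 CPM, such as ZNF521 (0.0169 CPM). Others rose above it, such as GALNT5 (0.82 CPM) and PDE1C (0.68 CPM). The other 4 of the 25 lay between 1 and 10 CPM. CHI3L1 was one of those, at 2.41 CPM, against 603 CPM in TC-32 siFLI1. In the siFLI1 libraries of TC-32, 19 of the 20 genes on in A673 had a mean under 1 CPM, among them LIPH at 0.47 CPM. The exception was ENPEP, the aminopeptidase A, which had 0, 0 and 0.0429 CPM in TC-32 and 18.7, 19.4 and 20.5 CPM in A673 under siNeg and means of 11.1 CPM in TC-32 and 11.6 CPM in A673 under siFLI1. In TC-71 siNeg, counted by the authors with another tool and scaled here to library totals, 3 of the 25 genes on in TC-32 had at least 10 CPM and 18 had under 1 CPM. Of the 20 on in A673, 7 had at least 10 CPM and 9 had under 1 CPM. HTATIP2 (83.6 CPM), IMPACT (65.4 CPM) and FUCA2, a lysosomal fucosidase (57.4 CPM), were on in A673 and TC-71 and off in TC-32. NLRP2, PEG3, PDPN, SULT1E1 and TMEM233 were on in A673, off in TC-32 and at 0 in TC-71.

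RefSeq promoters of 300 bases, from 250 before to 50 after the start, were found for 15 of the 25 genes on in TC-32 and 16 of the 20 on in A673. At least 15 CG were present in 10 of the 15 (66.7%) and in 8 of the 16 (50%). The share was 88.5% among 6902 promoters of genes with at least 10 CPM in both lines and 48.9% among all 26246 autosomal promoters. Both kinds are visible in the sequences printed above, TWIST2 and ZNF518B with 26 CG each before the start and POU1F1 with 3. The pair of fusion-binding repeats GGAAGGAA, searched on both strands, was present in 0 of the 15, in 1 of the 16 (6.25%), in 3.22% of promoters of genes on in both lines and in 3.55% of all promoters. No methylation or binding was measured here, and the counts describe these windows only.

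The second comparison asked whether the line difference was the same in the siFLI1 libraries, which share no library with the siNeg comparison. Of the 4766 genes past the 2-fold test under siNeg, 4468 were tested under siFLI1, and 4074 of these (91.2%) differed in the same direction. The same direction and the 2-fold test were both met by 3117 (69.8%), while 41.6% of all genes tested under siFLI1 passed that test and 85.3% had an adjusted p under 0.05. Over all 16286 genes tested in both, 75.5% had the same direction. For 114 genes, the difference passed the 2-fold test in both and was opposite. Table, medium and depth go with the line in both comparisons.

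FLI1, whose reads come from the fusion and any unfused transcript, had 46.1, 48.6 and 43.6 CPM in TC-32 and 76.4, 76.9 and 75.6 CPM in A673. It was lower in TC-32 with no overlap (-0.73, SE 0.0425, edgeR adjusted p = 8.02e-17) but not past the 2-fold test. It lies on chromosome 11 from 128686535 to 128813267 (GENCODE release 44, GRCh38). EWSR1, the 5′ partner of the fusion, had 331, 343 and 335 CPM in TC-32 and 364, 352 and 352 CPM in A673 (-0.08, SE 0.0296, edgeR adjusted p = 0.0112), and its sign turned when a trend with GC content was removed. The counts of members of each gene list below stand beside 39.9% of all genes higher in TC-32 and 41.9% higher in A673, and 15.2% and 13% past the 2-fold test in those directions. Of 18 ETS family genes tested, 3 were past the 2-fold test toward TC-32 and 5 toward A673. ETS1, the gene the series is named for, had 12.3, 11.8 and 10.6 CPM in TC-32 and 2.94, 3.381 and 3.19 CPM in A673, higher in TC-32 (1.86, SE 0.0916, edgeR adjusted p for the 2-fold test = 3.81e-11). ETV5, an ETS factor that rises with MAPK signalling, had 0.725, 0.883 and 0.815 CPM in TC-32 and 40.9, 42.3 and 38.5 CPM in A673 (-5.64, SE 0.102). ELF1 (-2.39, SE 0.0628) and ELK3 (-2.14, SE 0.0421) were also past the test toward A673, and the epithelial ETS factor ELF3 (5.49, SE 0.349) toward TC-32. ETV5 and ETS1 therefore lay on opposite sides within one family.

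Genes known to be raised by the fusion did not share a direction. Of 29 tested, 12 were higher in TC-32 and 16 in A673, with 6 and 10 past the 2-fold test, and the median log2 fold change was -0.36 against -0.02 over all genes. GLI1, the effector of Hedgehog signalling, had 0.938, 0.614 and 1.03 CPM in TC-32 and 15.04, 14.3 and 14.1 CPM in A673. NPY1R, a neuropeptide Y receptor, had 12.2, 14.2 and 12.01 CPM in TC-32 and 192, 200.2 and 194 CPM in A673 (-3.93, SE 0.0497), and STEAP2, a metalloreductase, had 13.3, 14.97 and 13.3 CPM in TC-32 and 163, 171 and 167 CPM in A673 (-3.59, SE 0.0483). All 3 were higher in A673 in every library. KIT, the stem cell factor receptor, had 109, 108 and 105 CPM in TC-32 and 21.2, 21.3 and 21.6 CPM in A673 (2.33, SE 0.0406), and the homeobox factor DLX2 had 73.97, 69.2 and 76.2 CPM in TC-32 and 21.2, 22.7 and 23.7 CPM in A673. PRKCB, a protein kinase C, had 281 ± 4.71 CPM in TC-32 and 266 ± 6.11 CPM in A673 (0.08, SE 0.0303), and the stem cell factor SOX2 had 47.4 ± 1.099 CPM in TC-32 and 44.1 ± 2.39 CPM in A673 (0.10, SE 0.0463), both close between the lines, and neither was called when libraries were scaled by library size alone. Of 15 genes known to be lowered by the fusion, 5 were past the 2-fold test toward TC-32 and 1 toward A673, with a median of 0.14. TNS3 and IGFBP3, the main binding protein of insulin-like growth factors in serum, led them. IGFBP3 had 44.3, 49.8 and 48.7 CPM in TC-32 and 0.457, 0.533 and 0.287 CPM in A673 (6.80, SE 0.0985). TNC, the matrix protein tenascin C, had 3297, 3171 and 3340 CPM in TC-32 and 810, 769.5 and 748 CPM in A673 (2.07, SE 0.0317). PHLDA1 was the gene past the test toward A673 (-1.34, SE 0.0753). These are lists from general knowledge of the tumour, chosen with earlier results of these data known.

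Of 32 growth factor receptors and ligands, 14 were past the 2-fold test toward TC-32 and 6 toward A673, which is 62.5% beside 28.2% of all genes, and the median was 0.64. NTRK2, the receptor of BDNF, had 27.6, 27.4 and 24.6 CPM in TC-32 and 0.116, 0.0657 and 0.09297 CPM in A673 (8.15, SE 0.132). FGFR2, a fibroblast growth factor receptor, had 52.3, 54.9 and 52.01 CPM in TC-32 and 0.216, 0.337 and 0.473 CPM in A673 (7.27, SE 0.0992). Both were high in TC-32 and under 1 CPM in each A673 library. RET, the receptor of GDNF family ligands, had 0.341, 0.0768 and 0.172 CPM in TC-32 and 44.9, 44.8 and 43.6 CPM in A673 (-7.84, SE 0.133). RET and NTRK2 thus lay on opposite sides. FLT1, a VEGF receptor, was higher in A673 (-4.42, SE 0.152), while the VEGF receptors KDR (2.62, SE 0.0675) and FLT4 (3.67, SE 0.126) were higher in TC-32. IGF1R, a receptor studied as a drug target in Ewing sarcoma, had 209, 212 and 218 CPM in TC-32 and 55.7, 57.6 and 56.3 CPM in A673 (1.91, SE 0.0337), and its ligand IGF1 had 10.3, 11.2 and 11.2 CPM in TC-32 and 27.3, 29.3 and 29.4 CPM in A673 (-1.39, SE 0.0616). The receptor was thus higher in TC-32 and the ligand higher in A673, both past the 2-fold test under siNeg. Under siFLI1 the receptor was again higher in TC-32 (2.30), while the ligand had the reverse order, with 26.7 CPM in TC-32 and 1.08 CPM in A673 (4.62). IGF1 no longer passed the 2-fold test once the GC trend was removed (-0.91), and exons on the opposite strand overlap 82.5% of it. AXL (3.73, SE 0.0669) and PDGFRA (5.64, SE 0.122) were also past the test toward TC-32. With the GC trend removed, 12 and 6 members were past the test.

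Genes of neurons and secretory granules were mostly higher in A673. Of 19 tested, 15 were higher in A673, against 3 higher in TC-32, beside 41.9% and 39.9% of all genes. Past the 2-fold test toward A673 were 10 of the 19, beside 13% of all genes, and the median was -1.25. NPY, the neuropeptide, had 0.0853, 0.115 and 0.0858 CPM in TC-32 and 31.01, 30.7 and 31.1 CPM in A673. NEFM, a neurofilament, had 0.128, 0.2303 and 0.3004 CPM in TC-32 and 57.7, 55.6 and 56.1 CPM in A673 (-7.99, SE 0.118). PCSK2, a prohormone convertase, had 31.5, 27.6 and 33.3 CPM in TC-32 and 278, 277 and 273 CPM in A673 (-3.17, SE 0.0441), and PCSK1, a related convertase, had 0.0853, 0.0384 and 0.0429 CPM in TC-32 and 4.53, 4.11 and 4.31 CPM in A673. They were high in each A673 library, and NPY and PCSK1 were at 5 counts or fewer in each TC-32 library. NCAM1, given above, was the member past the test toward TC-32. SCG3, STMN2, ELAVL4 and INSM1 were among those that did not pass the low-count filter. Of 6 markers of sympathetic neurons, 4 were at 3 counts or fewer in all 6 libraries, among them PHOX2A, TH and DBH. HAND2, a basic helix-loop-helix factor also of heart and limb, had means of 62.6 CPM in TC-32 and 18.1 CPM in A673 (1.79, SE 0.0465), and GATA3, a zinc finger factor also of T cells and breast, had 0.112 and 0.9499 CPM (-3.09, SE 0.466), both past the 2-fold test.

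Transcription factors of cell lineages differed in both directions. Of 31 tested, 11 were past the 2-fold test toward TC-32 and 6 toward A673, with a median of 0.47. TBX5, a T-box factor of heart and forelimb, had 278, 278 and 281 CPM in TC-32 and 1.56, 1.84 and 1.55 CPM in A673 (7.40, SE 0.05101). TBX3, its relative, had 48.05, 46.9 and 53.2 CPM in TC-32 and 0.415, 0.337 and 0.372 CPM in A673 (7.04, SE 0.0882), and the mesenchymal factor PRRX1 had 12.3, 11.9 and 10.6 CPM in TC-32 and 0.158, 0.148 and 0.271 CPM in A673 (5.91, SE 0.161). PAX7, a paired-box factor of muscle stem cells and neural crest, had 1.02, 0.9596 and 1.502 CPM in TC-32 and 36.7, 36.2 and 36.6 CPM in A673 (-4.98, SE 0.0968), and PAX3, its closest relative, had 47.96, 47.2 and 48.5 CPM in TC-32 and 20.1, 19.7 and 19.4 CPM in A673 (1.28, SE 0.0457). PAX7 and PAX3 thus lay on opposite sides. SOX8 had 0.0426, 0 and 0 CPM in TC-32 and 7.36, 6.71 and 6.42 CPM in A673, and ISL1, a LIM homeobox factor of motor neurons and heart, had 1.02, 0.614 and 0.386 CPM in TC-32 and 7.47, 8.18 and 7.87 CPM in A673 (-3.54, SE 0.164). Among 27 HOX genes tested, 9 were past the test toward TC-32 and 1 toward A673, with a median of 0.37, while 12 HOX genes, HOXB1 and members of the HOXA cluster, did not pass the low-count filter. HOXB13 had 264, 254 and 262 CPM in TC-32 and 21.4, 20.9 and 20.8 CPM in A673 (3.63, SE 0.0361), and HOXC12 had 33.2, 35.3 and 33.9 CPM in TC-32 and 3.34, 3.27 and 3.45 CPM in A673 (3.35, SE 0.0647). HOXC8, the member past the test toward A673, had 2.601, 3.19 and 3.05 CPM in TC-32 and 8.96, 8.99 and 8.95 CPM in A673 (-1.60, SE 0.101). Of 18 genes that regulate the HOX clusters, 3 were past the test toward TC-32, among them the HOXC antisense RNA HOTAIR (1.89, SE 0.1101) and the Polycomb protein CBX7 (2.10, SE 0.0938), and 1 toward A673, the Polycomb protein BMI1 (-1.71, SE 0.0469). Exons of other genes overlap 17.9% of CBX7 (opposite strand) and 22.8% of BMI1 (same strand), and how the counting treated strand is not given in the sources used here.

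Adhesion and matrix genes split between the lines. Of 27 mesenchymal genes tested, 6 were past the 2-fold test toward TC-32 and 7 toward A673. TPM2, a tropomyosin of the contractile apparatus, had 254, 253 and 267 CPM in TC-32 and 20.2, 18.7 and 19.9 CPM in A673 (3.72, SE 0.0388), and COL3A1 (1.60, SE 0.0318) and the proteoglycan VCAN (2.95, SE 0.112) were also higher in TC-32. FBN1, the main protein of microfibrils (-2.19, SE 0.0416), and COL5A2 (-2.18, SE 0.0333) were higher in A673 together with COL1A2. Of 24 integrins and classical cadherins, 5 were past the test toward TC-32 and 8 toward A673. CDH13, a cadherin held by a lipid anchor, had 35.5, 34.7 and 34.97 CPM in TC-32 and 0.141, 0.148 and 0.135 CPM in A673 (7.93, SE 0.106), and CDH3, P-cadherin, had 16.2, 16.7 and 16.2 CPM in TC-32 and 0.158, 0.254 and 0.161 CPM in A673 (6.41, SE 0.138). CDH8, a cadherin of the brain, had 2.17, 1.92 and 2.23 CPM in TC-32 and 79.95, 81.9 and 81.4 CPM in A673 (-5.27, SE 0.0726), and CDH2, N-cadherin, had 20.2, 18.5 and 19.2 CPM in TC-32 and 117, 116 and 114 CPM in A673 (-2.58, SE 0.0458). ITGA3, a laminin receptor subunit, was higher in TC-32 (3.71, SE 0.09003), and ITGA4 (-3.93, SE 0.127) and ITGA5, the fibronectin receptor subunit (-1.75, SE 0.0353), were higher in A673.

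**Figure D3:**
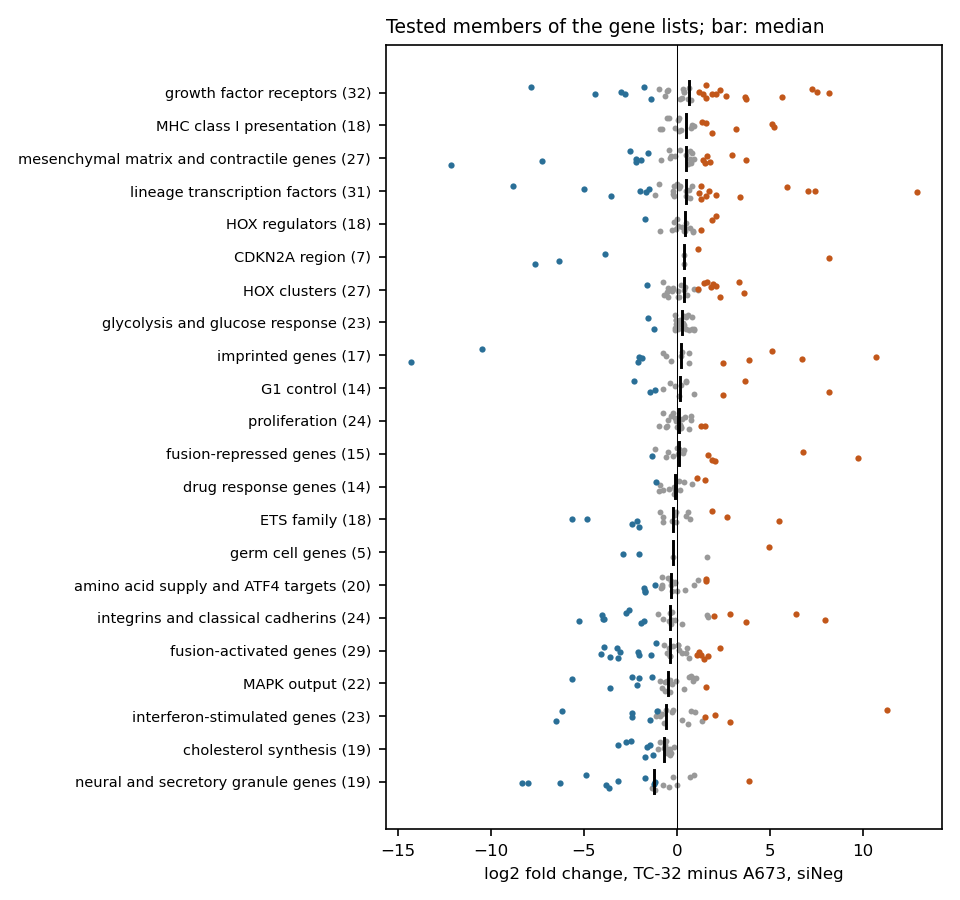
Log2 fold change of TC-32 minus A673 (x axis) of each tested member of 22 gene lists, with the number tested in brackets, members past the 2-fold test toward TC-32 in orange and toward A673 in blue, and a bar at the median. The medians run from -1.25 for neural and secretory granule genes to 0.64 for growth factor receptors, and most lists hold members on both sides.

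All 19 genes of cholesterol synthesis and uptake on the list were higher in A673, 7 of them past the 2-fold test, with a median of -0.69 and no member higher in TC-32. STARD4, a carrier of cholesterol between membranes, had 12.9, 11.6 and 10.9 CPM in TC-32 and 104, 105 and 108 CPM in A673 (-3.17, SE 0.0531). SC5D, the lathosterol oxidase, had 16.5, 15.3 and 16.9 CPM in TC-32 and 86.1, 91.6 and 89.2 CPM in A673 (-2.46, SE 0.0504). Neither gene overlapped between the lines. The median stayed at -0.70 with the GC trend removed, and it was -1.29 under siFLI1. The media of the 2 lines differed, and their part in this was not tested. Of 20 genes of amino acid supply and ATF4 targets, 14 were higher in A673 and 5 in TC-32, with 4 and 2 past the 2-fold test. SLC7A5, the large neutral amino acid transporter, had 176, 169 and 192 CPM in TC-32 and 588, 565 and 576 CPM in A673 (-1.69, SE 0.0359). Of 23 genes of glycolysis and the glucose response, 14 were higher in TC-32 and 5 in A673, but the 2 past the 2-fold test, ALDOC (-1.54, SE 0.0811) and PFKM (-1.20, SE 0.0349), were higher in A673.

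Of 22 genes of MAPK output, which include negative feedback genes and induced transcription factors, 14 were higher in A673 and 7 in TC-32, with a median of -0.46. Past the 2-fold test were 6 toward A673 and 1 toward TC-32, beside 13% and 15.2% of all genes. DUSP6, a phosphatase of ERK, had 34.1, 33.7 and 34.1 CPM in TC-32 and 149, 152 and 155 CPM in A673 (-2.16, SE 0.0395), DUSP4 had 0.767, 0.345 and 0.858 CPM in TC-32 and 7.85, 8.19 and 7.11 CPM in A673 (-3.58, SE 0.168) and the inhibitor SPRY4 had 5.46, 6.14 and 6.31 CPM in TC-32 and 30.8, 31.2 and 31.7 CPM in A673 (-2.39, SE 0.0676). All libraries of A673 were above all libraries of TC-32 at these genes. EGR1, an immediate early factor, was the member past the test toward TC-32, with 56.96, 59.8 and 61.1 CPM in TC-32 and 20.1, 20.5 and 19.3 CPM in A673 (1.57, SE 0.0458). The median was -1.56 under siFLI1.

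The region of CDKN2A on chromosome 9, often lost in tumours, differed gene by gene. MTAP, an enzyme of methionine salvage on chromosome 9 from 21802636 to 21937651, had 0.639, 0.307 and 0.7295 CPM in TC-32 and 43.2, 46.8 and 45.5 CPM in A673 (-6.36, SE 0.114). CDKN2A, which encodes the inhibitors p16 and p14ARF on chromosome 9 from 21967752 to 21995301, had 13, 13 and 10 counts in TC-32 and 0 in all A673 libraries. At a mean of 0.494 CPM it was low in TC-32 too, and at least 19.5-fold above the limit in A673. CDKN2B-AS1, the antisense RNA that overlaps the region, had 89, 73 and 81 counts in TC-32 and 0 in A673, and CDKN2B had 0 in both. HACD4 had 0 counts in TC-32 and 42, 37 and 43 in A673, and DMRTA1 had 0, 0.115 and 0 CPM in TC-32 and 0.532, 0.558 and 0.744 CPM in A673. FOCAD, beside HACD4 (0.41, SE 0.03596), and KLHL9, between HACD4 and MTAP (0.38, SE 0.0497), were called toward TC-32 and did not pass the 2-fold test. MTAP and CDKN2A therefore lay on opposite sides, with KLHL9 expressed in both lines nearby. Among 14 genes of G1 control, 3 were past the 2-fold test in each direction, with CDK6, a kinase that phosphorylates RB1, higher in A673 (10.4, 11.1 and 8.88 CPM in TC-32 and 50.5, 50.9 and 51.3 CPM in A673, -2.33, SE 0.0599), and RB1 higher in A673 (-1.42, SE 0.0455) by more than 2-fold only before the GC trend was removed.

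Genes of MHC class I presentation had 6 members past the 2-fold test toward TC-32 and 0 toward A673 of 18, beside 15.2% and 13% of all genes, with a median of 0.48. At an adjusted p under 0.05 the split was 12 and 5. With the GC trend removed, the median was 0.26 and the split 10 and 6, with 6 and 0 past the 2-fold test. HLA-B had 179, 165 and 182 CPM in TC-32 and 5.18, 5.21 and 4.75 CPM in A673 (5.12, SE 0.0498), while HLA-C had 81.1, 78.7 and 84.9 CPM in TC-32 and 89.01, 85.4 and 91.2 CPM in A673. ERAP2, a peptide-trimming enzyme, had 35, 34.1 and 31.9 CPM in TC-32 and 3.399, 3.87 and 3.78 CPM in A673 (3.19, SE 0.0673), and TAP1, a peptide transporter subunit, had 37.05, 36.7 and 40.9 CPM in TC-32 and 12.9, 12.2 and 13.3 CPM in A673 (1.58, SE 0.0549). B2M, the light chain of all class I molecules, had 704, 724 and 657 CPM in TC-32 and 995, 976 and 1009 CPM in A673 and was higher in A673 (-0.52, SE 0.0314). HLA genes differ in sequence between people and share reads with one another, so their counts also depend on how well the alleles of each line match the reference, which was not tested. Interferon-stimulated genes were split, with 4 past the test toward TC-32 and 6 toward A673 of 23. MX2 and BST2 (2.86, SE 0.0753), which hold back viruses, were higher in TC-32, and IFI44 (-6.20, SE 0.149) and IFI44L (-6.47, SE 0.228) were higher in A673.

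Of 17 imprinted genes, which are expressed from one parental copy, 5 were past the 2-fold test in each direction. PEG3, a zinc finger protein expressed from the paternal copy on chromosome 19 from 56810077 to 56840728, had 0.0426, 0 and 0 CPM in TC-32 and 296, 313 and 311 CPM in A673. Its neighbours ZIM2, ZIM2-AS1 and MIMT1 had 0 counts in all TC-32 libraries and means of 2.44, 0.544 and 0.849 CPM in A673. All 4 were at 0 in TC-71 siNeg too. ZIM2 and PEG3 lie over one another on the same strand, and exons of other genes overlap 41.2% of ZIM2, 12.9% of PEG3 and 92.7% of ZIM2-AS1 on the same strand, so their counts are uncertain. NDN, expressed from the paternal copy, had 2.601, 3.03 and 2.92 CPM in TC-32 and 0 in all 3 libraries in A673, so TC-32 was at least 112-fold above A673, and the zinc finger protein PLAGL1 had 1.62, 0.883 and 1.72 CPM in TC-32 and 0.0249, 0.04104 and 0.0507 CPM in A673 (5.11, SE 0.3997). MEST (-2.07, SE 0.0491) and the long noncoding RNA MEG3 (-2.05, SE 0.0598) were higher in A673. Among 5 germ cell genes tested, PRAME, a cancer-testis antigen, was past the test toward TC-32 (30.99, 31.2 and 29.8 CPM in TC-32 and 1.09, 1.02 and 0.854 CPM in A673, 4.96, SE 0.0855), and TEX15 (-2.87, SE 0.0728) and LIPI (-2.02, SE 0.0455) were past it toward A673, while 16 such genes did not pass the low-count filter.

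Of 24 genes of proliferation, 2 were past the 2-fold test, TOP2A, the DNA topoisomerase targeted by etoposide and doxorubicin, with 832, 815 and 765 CPM in TC-32 and 262, 288 and 282 CPM in A673 (1.54, SE 0.0354), and the cyclin CCNE2 (1.28, SE 0.0571), both higher in TC-32, and the median was 0.14, or 0.22 with the GC trend removed. MKI67, a marker of cycling cells, had 638, 621 and 636 CPM in TC-32 and 544, 551 and 556 CPM in A673. Of 14 genes of drug response, SLFN11, which sensitises cells to DNA damage, had 309.8, 306 and 303 CPM in TC-32 and 177, 180.1 and 175 CPM in A673 and was called toward TC-32 within 2-fold. NAPRT, an enzyme of NAD synthesis, and BCL2, which blocks cell death, were near the limit of the 2-fold test (NAPRT 1.09, SE 0.0532, BCL2 -1.10, SE 0.0482) and lost it under several alternatives.

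Markers of Ewing sarcoma were expressed in both lines. The 8 markers summed to between 672 and 688 CPM in TC-32 and between 699 and 723 CPM in A673, but all 8 differed between the lines, 4 in each direction. Past the 2-fold test were NKX2-2 (1.17, SE 0.0474), BCL11B (1.45, SE 0.0424) and CCK (1.31, SE 0.0663) toward TC-32 and STEAP1 (-2.11, SE 0.0452) toward A673. NKX2-2 and CCK did not pass it with the GC trend removed. The muscle factors MYOD1, MYOG and MYF5, the melanocyte genes TYR and MLANA and the blood genes CD3E and HBB were at 3 counts or fewer in every library of both lines. Other members of these lists had reads. Of the muscle list, MYH3, an embryonic myosin, had means of 3.54 CPM in TC-32 and 3.17 CPM in A673, and DES, a muscle intermediate filament, had 0.318 and 0.0139 CPM (4.35, SE 0.697). Of the melanocyte list, DCT, an enzyme of melanin synthesis, had 0.646 and 0.00555 CPM (6.48, SE 0.645) and MITF, a factor of pigment cells, 1.015 and 0.13 CPM (2.96, SE 0.388). Of the blood list, CD68, a macrophage protein, had 1.93 and 6.83 CPM (-1.84, SE 0.184), with 81.6% of its exon sequence shared with genes on the same strand. The 5 endothelial markers summed to between 34.03 and 35.2 CPM in TC-32 and between 5.595 and 6.398 CPM in A673, most of it KDR. PECAM1 and TEK were also past the test toward TC-32, and VWF was at 7 counts or fewer. CDH5, a cadherin of endothelium, had 0.286 CPM in TC-32 and 0.378 CPM in A673 and was not called (-0.39, SE 0.393). The 6 epithelial markers summed to between 92.1 and 107 CPM in TC-32 and between 294 and 316 CPM in A673. Most of this was the keratin KRT18, with 95.7 CPM in TC-32 and 289 CPM in A673 (-1.59, SE 0.04299), and KRT8, its partner, had 2.27 and 14.4 CPM (-2.67, SE 0.107). KRT5, a basal keratin, had 40, 45 and 43 counts in TC-32 and 0 in A673, and EPCAM, a defining epithelial gene, had at most 16 counts in any library. The 6 fibroblast markers, of which COL1A1, COL1A2, COL3A1 and PDGFRA were expressed in at least 1 line, summed to between 672.9 and 713 CPM in TC-32 and between 1086 and 1134 CPM in A673. Most of the A673 sum was COL1A2, with 0.195 CPM in TC-32 and 866 CPM in A673. COL3A1 (599 and 198 CPM), COL1A1 and PDGFRA were higher in TC-32, so the 6 markers split 3 and 3. The defining genes of fibroblasts LUM and DCN were under 1 CPM in both. In bulk RNA, fewer cells with a transcript and less transcript per cell cannot be told apart.

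The third question was where the differing genes lie. The medians are given relative to the median of all genes, -0.02. Genes on chromosome 13 had the lowest median, -0.70 over 318 genes, followed by chromosome 18 (-0.52), chromosome 4 (-0.50) and chromosome 14 (-0.46), and the highest medians were on chromosome 19 (0.48) and chromosome 17 (0.27). Over all genes, however, the difference rose with the GC content of the longest transcript, from a median of -0.50 in the group of genes with the lowest GC to 0.64 in that with the highest, of 10 equal groups (Pearson 0.18, Spearman 0.28 across 16889 genes, which are not independent). Gene length had the opposite trend, from 0.32 in the shortest to -0.18 in the longest group. With the GC trend removed, the median of chromosome 13 was -0.48, of chromosome 18 -0.32, of chromosome 4 -0.30, of chromosome 14 -0.39, of chromosome 19 0.22 and of chromosome 17 0.11, and 17 of 22 chromosomes kept their sign. Under siFLI1, the median of chromosome 13 was -0.65 and that of chromosome 19 was 0.58. With the GC trend removed there too, they were -0.30 and 0.20. Copy number was not measured here.

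**Figure D4:**
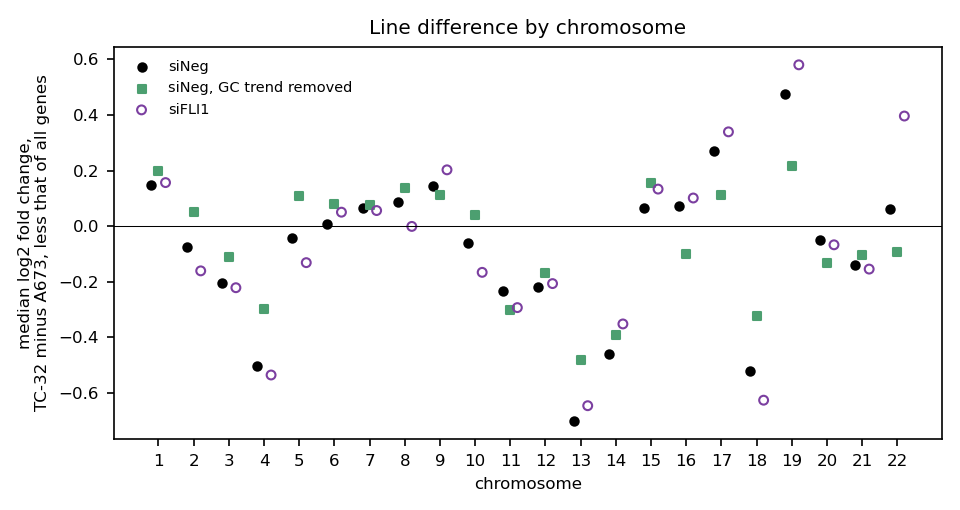
Median log2 fold change of TC-32 minus A673 on each autosome, less the median of all genes, for siNeg (black), siNeg with the GC trend removed (green squares) and siFLI1 (purple rings). Chromosomes 4, 13, 14 and 18 lie below 0 and chromosomes 17 and 19 above 0 in all 3. Each of these chromosomes lies closer to 0 for siNeg once the GC trend is removed.

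Within chromosomes, windows of 10 Mb with at least 20 tested genes showed stretches that differed from their chromosome. Windows of chromosome 8 are not reported here. On chromosome 17, the window from 40000001 to 50000000 had a relative median of 0.92 (0.84 with the GC trend removed) over 218 genes, with 87 past the 2-fold test toward TC-32 and 9 toward A673. The window before it, from 30000001, had 0.80 over 115 genes. On chromosome 13, the windows from 20000001 and from 30000001 had -1.02 and -1.06, with 23 of 55 and 21 of 43 genes past the test toward A673. On chromosome 11, the window from 40000001 had -0.99 (-1.13 with the GC trend removed), and on chromosome 16, the window from 80000001 had -0.90 (-1.09). The highest of these medians was on chromosome 19 from 20000001 to 30000000, 1.04 (1.37 with the GC trend removed), with 24 of 50 genes past the test toward TC-32.

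The last window holds a cluster of zinc finger genes of the KRAB type, which repress transposable elements and other targets. The cluster was looked at because of the window's value, so its counts are a description. Of 31 ZNF genes in it, 25 were tested, and 14 were past the 2-fold test toward TC-32 and 0 toward A673, with a median of 2.10. At an adjusted p under 0.05, 19 were higher in TC-32 and 3 in A673, beside 39.9% and 41.9% of all genes. ZNF254 (-0.86, SE 0.0699), ZNF708 (-0.42) and ZNF738 (-0.29) were the members higher in A673. The other ZNF genes of chromosome 19 had 27 and 5 past the test of 206, with a median of 0.33, and those of other chromosomes had 17 and 11 of 209, with a median of 0.10. ZNF90 had 12.02, 14.01 and 13.2 CPM in TC-32 and 0.116, 0.1395 and 0.161 CPM in A673, and ZNF486 had 26.6, 24.8 and 23.3 CPM in TC-32 and 0.299, 0.468 and 0.338 CPM in A673. ZNF492 had 3.88, 4.18 and 3.56 CPM in TC-32 and 0 in all 3 libraries in A673, and ZNF208 and ZNF257 were also at 0 in all A673 libraries. Other members of the same stretch were not called, among them ZNF430 (14.2 ± 0.725 CPM in TC-32 and 13.3 ± 1.24 CPM in A673) and ZNF431 (23.5 ± 0.345 CPM in TC-32 and 21.7 ± 1.15 CPM in A673), though both were called toward TC-32 with the GC trend removed (0.54 and 0.56). ZNF91, which silences retrotransposons, had 20.8, 16.2 and 17.3 CPM in TC-32 and 3.68, 4.03 and 3.52 CPM in A673 (2.27, SE 0.0871). These genes are close copies of one another and share reads, so the value of a single member is uncertain.

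**Figure D5:**
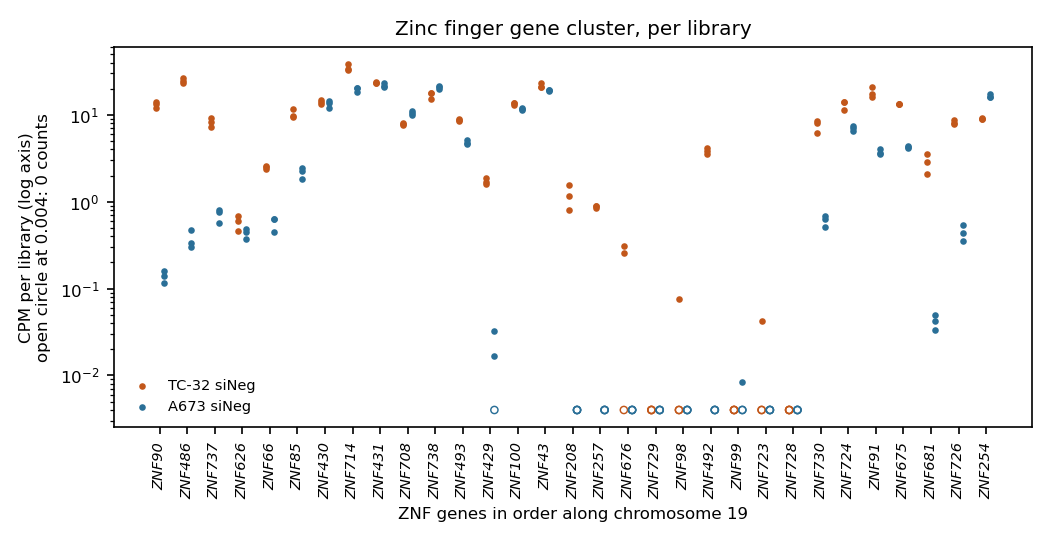
CPM in each library (y axis, log scale) of the 31 ZNF genes between 20 and 30 Mb of chromosome 19, in their order along the chromosome, with TC-32 siNeg in orange and A673 siNeg in blue. Open circles at 0.004 are libraries with 0 counts. Members with large differences stand beside members with nearly equal levels. Among the members tested, ZNF208, ZNF257 and ZNF492 are at 0 in every A673 library and in no TC-32 library.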

How the data were processed

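Libraries were made from total RNA with a stranded messenger RNA kit, per the labels. The values the authors deposited for both lines compared are expected counts per gene, attributed to RSEM by the names of the tables, with the version and the strand setting not given in the sources used here. For TC-71 the authors deposited read counts, attributed to Subread. The submitters' processing notes list cutadapt 4.4, STAR 2.7.3, featureCounts, Subread 2.0.3, limma 3.38.3 and the builds GRCh38 and hg38, with no roles. Neither unit is scaled to depth or length, so levels were compared between lines and not between genes.

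Expected counts were rounded. In R 4.3.3, edgeR 4.0.16 was run on the 6 siNeg libraries with filterByExpr, TMM scaling and robust quasi-likelihood fits, with a prior count of 0.125, and the F-test and glmTreat at 2-fold were adjusted by Benjamini-Hochberg over all 16889 genes tested. Each adjusted p is from edgeR. Genes on X and Y stayed in the library totals. GENCODE release 44, read with Python 3.11.15, gave positions, exon overlaps and GC content, and promoters from RefSeq. On simulated counts with 200 changed genes, the F-test recovered 81.5% at 2-fold among 16577 genes with 4.68% false calls, and the 2-fold test recovered 85.5% at 4-fold. Far fewer genes were changed there than in the data, where 81.9% were called, so these rates may not hold for the comparison of the lines. Against a line at 0, folds took 3 counts per library as its limit, and for lines with up to 10 counts per library ratios carry an exact 95% interval.

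As alternatives, scaling by RLE factors or by library size alone was tried, as were unrounded counts, thinned libraries, a filter at a mean of 10 counts, no filter, all 12 libraries of both lines, X and Y kept in the fit, a replicate block, each library left out, DESeq2 1.42.0 and limma-voom (limma 3.58.1). Removal of the GC or length trend (lowess per library) was added after the medians by chromosome were seen. The members and lists were chosen with earlier results of these data known. Named were the 10 protein-coding genes with the largest difference past the 2-fold test in each direction, with libraries that did not overlap and at least 30 CPM in the higher line, and FLI1, EWSR1, ETS1 and TNS3. From each list the 3 largest differences past the test in each direction with at least 1 CPM in the higher line could be named, as could the genes around CDKN2A. Other genes were named for their role after their values were seen. Some genes and 1 list are not reported here.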

Additional observations from a re-analysis of the deposited data

Results flagged for a closer look

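At 8 of the genes named, the difference between the lines was past the 2-fold test in opposite directions under siNeg and siFLI1. Among the 4468 genes past that test under siNeg and tested under siFLI1, 114 differed in this way. The change between siRNAs was also put to an interaction test in edgeR over all 12 libraries of TC-32 and A673. A gene chosen for opposite differences in these same libraries passes it almost by construction, so its adjusted p-values are no further support. For ETS1 the line difference (log2) was 1.86 under siNeg and -1.11 under siFLI1, a change of 3.025 (interaction adjusted p = 1.82e-19). ETS1 had means of 11.6 ± 0.877 CPM in TC-32 and 3.17 ± 0.221 CPM in A673 under siNeg (SD, n = 3 libraries), and of 54.7 and 118.2 CPM under siFLI1, so the order of the lines was the reverse. For the cyclin CCNE2 it was 1.28 under siNeg and -1.80 under siFLI1, a change of 3.1326 (adjusted p = 4.65e-17). CCNE2 fell from 31.3 to 3.76 CPM in TC-32 and was at 12.9 CPM under siNeg and 13.03 CPM under siFLI1 in A673. Exons on the opposite strand overlap 37.1% of it. For IGF1 it was -1.39 under siNeg and 4.62 under siFLI1, a change of -5.9693 (adjusted p = 6.96e-24). For KDR it was 2.62 and -3.88, a change of 6.5549 (adjusted p = 1.68e-23), with means of 31.4 CPM in TC-32 and 5.09 CPM in A673 under siNeg and of 1.87 and 27.5 CPM under siFLI1. For BDNF, a neurotrophin and the ligand of NTRK2, it was 5.25 and -2.82, a change of 8.1139 (adjusted p = 9.27e-21), with means of 5.005 and 0.1301 CPM under siNeg and of 1.27 and 9.01 CPM under siFLI1. For MEG3 it was -2.05 and 1.35, a change of -3.3528 (adjusted p = 4.14e-23), with means of 385.3 CPM in TC-32 and 151.4 CPM in A673 under siFLI1. The fibroblast genes DCN and LUM, both under 1 CPM under siNeg, had 6.35 and 5.95 CPM in TC-32 and 0.981 and 1.42 CPM in A673 under siFLI1, changes of -5.907 for DCN (adjusted p = 1.64e-13) and -6.0776 for LUM (adjusted p = 1.8e-10).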

How the results depend on the processing

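The count of genes called stayed within 1.5 times the 13829 given, from 12309 in thinned libraries to 15139 with no low-count filter, with 13343 by DESeq2, 13768 by limma-voom and between 12831 and 13969 when each library was left out. The count past the 2-fold test ranged from 3947 by DESeq2 to 5433 with no filter, and between 4266 and 4821 when each library was left out. With library size alone the median of all genes moved from -0.02 to -0.12 and the share of calls toward TC-32 from 48.8% to 43.6%. Genes on in one line and off in the other numbered 109 with a limit of 0.3 CPM, 17 with a mean of 30 CPM and between 47 and 51 when each library was left out. The number with the same direction under siFLI1 lay between 3890 and 4166 when each siFLI1 library was left out. With the GC trend removed, 4406 genes were past the 2-fold test, 4019 of them also past it before, and the relative medians were -0.2999 for chromosome 4, -0.481 for chromosome 13, 0.1133 for chromosome 17 and 0.2173 for chromosome 19.

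Replicates with the same number in both lines did not clearly deviate together (correlations -0.018, 0.067 and -0.031). Pairs with unlike numbers gave between -0.043 and 0.058. With 3 libraries per line, these values show no pairing by number and cannot exclude one. With the replicate number as a block, 13643 genes were called, 4713 were past the 2-fold test and 4075 of 4468 had the same direction under siFLI1. Of 184 genes that the naming rules took or the text names, under 19 alternatives (3483 values), 3407 kept direction and call, 62 no longer passed, 8 newly passed and 6 turned. The turns were EWSR1, at 0.1143 with the GC trend removed and 0.0875 with the length trend removed, and 3 genes close to 0, PRKCB (-0.0197 with library size alone, -0.0125 with no filter), ZNF430 (-0.0036 with library size alone) and MYH3 (-0.0648 without TC-32 replicate 3, and up to 0.2418 when each library was left out). The calls lost were of EWSR1, MLLT3, RB1, CDKN2D, NAPRT, BCL2, PCGF2, IGF1, NKX2-2, CCK, PRKCB, SOX2 and HLA-C, and MLLT3 (without TC-32 replicate 2), CDKN2D, NAPRT, BCL2, PRKCB, SOX2 and HLA-C (without A673 replicate 3) lost theirs on leaving out single libraries too. The lower depth of TC-32 sets the limit for genes that are off in it.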

Other observations

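Among groups looked at after the results were seen, genes of ribosomal proteins were higher in TC-32. Of 74 tested, 70 were called toward TC-32 and 2 toward A673, with 44 and 0 past the 2-fold test and a median log2 fold change of 1.16, beside 15.2% of all genes past that test toward TC-32. They took between 6.54% and 6.67% of the counts in the TC-32 libraries and between 3.03% and 3.12% in the A673 libraries. RPS6, a protein of the small subunit, had means of 1734 ± 43.3 CPM in TC-32 and 374.8 ± 7.71 CPM in A673 (SD, n = 3 libraries). The median was 0.88 under siFLI1. Ribosomal protein genes are short and have many processed copies in the genome, and the part of length, of shared reads and of the tables was not tested.

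Of 15 genes encoded in the mitochondrion tested, 13 were called toward TC-32 and 0 toward A673, beside 39.9% and 41.9% of all genes, with a median of 0.54, and 0.43 under siFLI1. The difference was within 2-fold for most, with 1 of 15 (6.67%) past the 2-fold test toward TC-32, beside 15.2% of all genes. They took the shares of counts given in the description of the libraries, so the remaining genes held a smaller share of each TC-32 library.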
